A study of Caenorhabditis elegans with 2 samples.

Results

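The gene ges-1 of Caenorhabditis elegans was examined for binding of the transcription factor ELT-2 in whole L3 larvae. It is 1 of 19973 protein-coding genes on the nuclear chromosomes and was chosen by name. All peak summits within 5 kb of its gene body were taken from the authors' peak lists on the ce11 build, which is the WBcel235 assembly. The binding was mapped by ChIP-seq, in which chromatin bound by a protein is pulled down with an antibody and its DNA is sequenced. The samples are biological replicates 1 and 2 of a single group, which leaves no conditions to compare, and no test was run. The authors' lists hold peaks mixed with background for each replicate and for both replicates pooled, and a further list holds the peaks kept after IDR, a measure of how well peak ranks repeat between replicates.

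The larvae were hermaphrodites of strain OP56, with the genotype unc-119(ed3) III; wgIs56, collected 40 hours after synchronization by starvation of bleached L1 larvae. The transgene wgIs56 is stably carried and gives ELT-2 a GFP-FLAG tag at its C-terminus. The precipitation used an antibody against GFP, per the sample descriptions, although the antibody label itself names elt-2. Both replicates carried the transgene, and the promoter that drives it and the number of animals were not given in the labels. Signal came from whole animals, so any cell with the tagged protein could contribute. A cell type check by marker genes was not possible, because the lists hold binding and no expression. A control library was not analysed here.

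The gene ges-1 encodes the gut esterase, a carboxylesterase made in the intestinal lineage and used as a marker of intestinal differentiation. ELT-2 is the GATA-type zinc finger factor of the differentiated intestine and binds the core sequence TGATAA, a form of the general GATA site WGATAR, in which W is A or T and R is A or G. Upstream of ges-1 lies a tandem pair of WGATAR sites that was dissected in reporter genes, where its loss moved expression from the gut to the pharynx and tail, and ELT-2 was first isolated through its binding to this DNA.

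The gene (WBGene00001578) lies on the minus strand at chrV:1427653-1432137, spans 4485 bp and has 8 exons. The annotated transcript R12A1.4.1 starts at the first coding base, position 1432137, so that no leader before the coding sequence is annotated and distances below run from that base. On the upstream side the nearest annotation is the pseudogene WBGene00019976 (R09B5.1), which leaves 2201 bp of intergenic DNA. Past the end of ges-1, the coding gene R12A1.3 begins after 1858 bp. The next coding gene upstream, R09B5.11, lies 7067 bp away.

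The tandem element and the peak that covers it are printed from the RefSeq genome of WBcel235, on the minus strand so that they read in the direction of ges-1, with the WGATAR sites in capitals. The element was found by searching both strands for WGATAR sites whose starts lie at most 25 bp apart. The first sequence is the element with 3 bases on each side (chrV:1433253-1433276), and the second is the whole IDR-passing peak (chrV:1433189-1433361).
ges-1 element: aacTGATAGcaaaacTGATAAggg
ges-1 peak: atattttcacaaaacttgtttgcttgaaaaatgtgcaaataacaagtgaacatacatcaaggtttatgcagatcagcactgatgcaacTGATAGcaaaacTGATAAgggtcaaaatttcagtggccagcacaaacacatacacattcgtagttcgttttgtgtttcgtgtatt
The 18 bp from the first to the last capital hold 1 TGATAG and 1 TGATAA on the same strand, with starts 12 bp apart and 6 bases between them. The TGATAA occupies 1124 to 1119 bp upstream of the transcript start and the TGATAG 1136 to 1131 bp. Both are preceded by the bases AC. These were the only WGATAR sites in the 173 bp of the peak, whose GC content of 35.3% was close to the genome's 35.4%.

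A single IDR-passing summit lay within 5 kb of ges-1. It stood at position 1433269, 1132 bp upstream of the transcript start, in intergenic DNA, and inside the TGATAG, 4.5 bp from the centre of the tandem element. Its signal, the authors' enrichment value for a peak on a scale of its own in each list, was 326. The median of the 9181 nuclear IDR-passing peaks was 203, the weakest was 74.97 and the strongest 9719. The ges-1 peak thus ranked 2832 from the top, with 69.2% of the peaks below it, and was 1.60 times the median. Having a summit within this reach was common, as 59.6% of the coding genes had one. For 24.2% of the genes there was exactly 1 such summit, as for ges-1, and 35.4% had more.

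**Figure D1:**
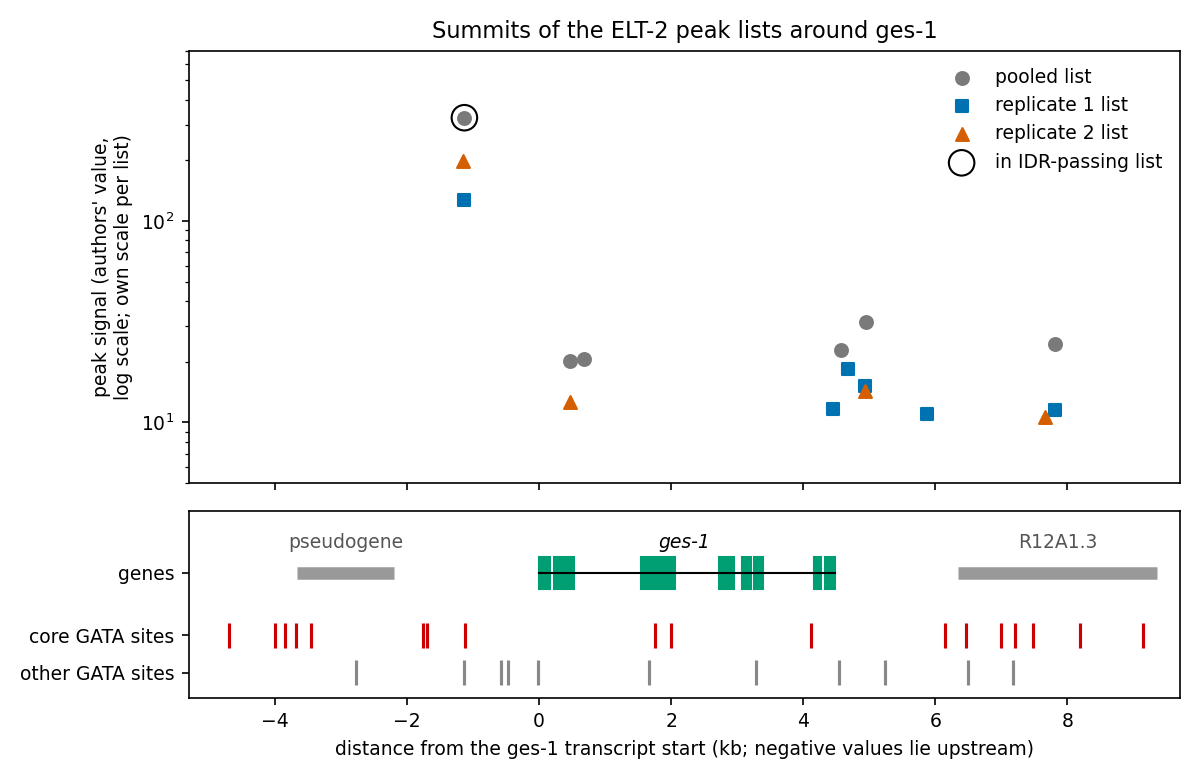
Peak summits within 5 kb of ges-1 in each list (upper panel, authors' signal on a log axis) above the gene models and the GATA sites (lower panel), by distance from the transcript start in kb, with upstream to the left. Green boxes are the 8 exons of ges-1, core sites are TGATAA and other sites are the remaining WGATAR; the summits near 1.1 kb upstream stand above all others in every list.

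Both replicates held the same upstream peak. In replicate 1 the summit lay at position 1433278, 1141 bp upstream, with a signal of 127, and in replicate 2 at position 1433285, 1148 bp upstream, with a signal of 198. The summits were 7 bp apart, closer than in 72.6% of the 8851 IDR-passing peaks matched in both replicates, whose median gap was 16 bp. Signals of different lists are not on 1 scale, so each was read against its own list. The replicate 1 peak ranked 3096 of 28026, 6.50 times the list median of 19.6, with 89.0% of the peaks lower. The replicate 2 peak ranked 2698 of 29977, 9.92 times the list median of 19.9, with 91.0% of the peaks lower. In the pooled list the peak was the same as in the IDR-passing list and ranked 2832 of 29981, 9.29 times the median of 35.1. It therefore stood in the upper part of every list and at the top of none.

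The ratio of the replicate 2 to the replicate 1 signal was 1.55 at ges-1. Over the matched peaks the median ratio was 1.37, with quartiles of 1.16 and 1.65, and 32.1% of the peaks had a higher ratio than ges-1. The difference between the replicates at ges-1 was therefore within the middle range of the peaks. The −log10 q of the authors was 3.13 in the IDR-passing and pooled lists, 3.10 in replicate 1 and 3.93 in replicate 2. Each is the highest value of its list, and 95.2% of the IDR-passing peaks share theirs, so this value does not order the peaks.

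**Figure D2:**
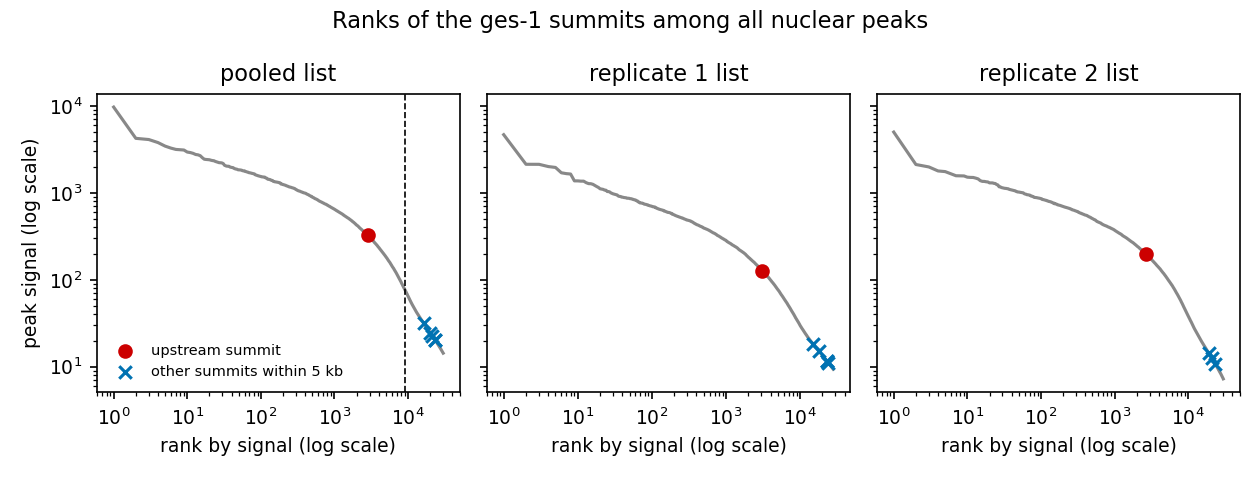
Signal of all nuclear peaks of the pooled list and of each replicate list against their rank, both on log axes, with the upstream ges-1 summit as a red dot and the other summits within 5 kb as blue crosses. The dashed line marks rank 9181, the size of the IDR-passing list; the red dots lie at ranks 2832, 3096 and 2698, and all crosses lie far to the right.

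The position of the summits relative to the element was measured to the base. The pooled summit lay inside the element, the replicate 1 summit 5 bp beyond its edge and the replicate 2 summit 12 bp beyond. Measured from the element's centre, these summits were 4.5, 13.5 and 20.5 bp away, and all of them were on the side away from the gene, where the TGATAG is. Every one of these peaks contained the whole element. The pooled and replicate 2 peaks were narrow, at 173 and 172 bp, where widths of 440 and 436 bp are the most common in those lists. Only 5.75% of the IDR-passing peaks were narrower than the ges-1 peak. The replicate 1 peak had its list's usual width of 424 bp.

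**Figure D3:**
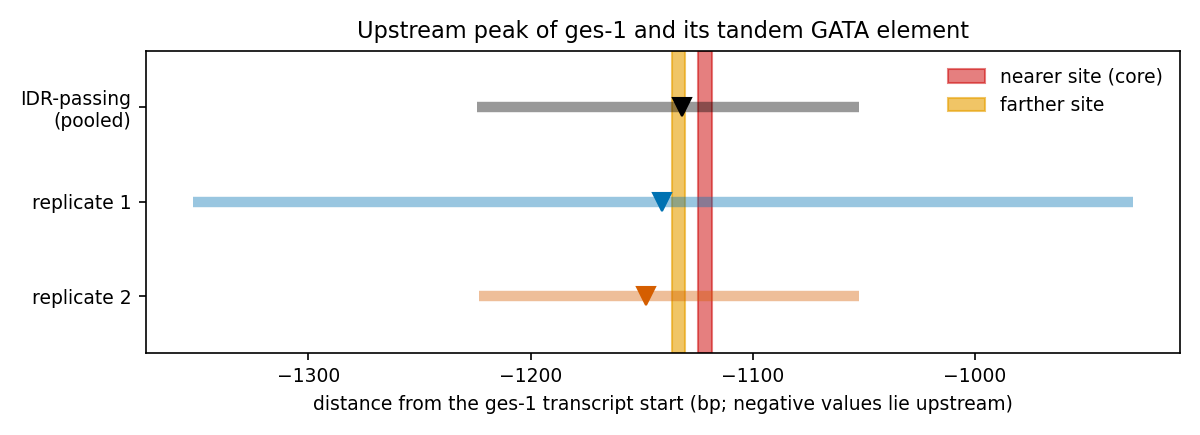
The upstream ges-1 peak in the IDR-passing list and in each replicate list (horizontal bars, with triangles at the summits), by distance from the transcript start in bp, with upstream to the left. The red band is the TGATAA and the yellow band the TGATAG of the tandem element; the triangles lie on or just upstream of the yellow band, at 1132, 1141 and 1148 bp.

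Against all IDR-passing summits, the pooled summit of ges-1 lay close to its GATA sites. The nearest WGATAR site had its centre 1.5 bp from the ges-1 summit, a distance matched by 4.00% of the summits, whose median was 41.5 bp. The nearest TGATAA centre was 10.5 bp away, and 13.5% of the summits were as near, with a median of 77.5 bp. A WGATAR pair centre as near as the 4.5 bp of ges-1 was found at 2.10% of the summits. These ranks rest on the pooled summit, since the nearest WGATAR centre was 7.5 bp from the replicate 1 summit and 14.5 bp from the replicate 2 summit, and the nearest TGATAA centre 19.5 and 26.5 bp. The number of sites was less unusual than their position. At least 1 TGATAA lay within 100 bp of 53.9% of the summits, compared with 18.7% of windows of equal size centred 500 bp away, and 41.4% of the summits had at least the 2 WGATAR sites of ges-1, compared with 9.26% of those windows.

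Pairs of sites went with stronger peaks over the list as a whole. A WGATAR pair lay within 100 bp of 1839 summits (20.03%, compared with 3.56% of the flanking windows), and the median signal of these peaks was 319, compared with 183 for the others. The ges-1 signal of 326 was close to the median of the peaks with a pair, 51.3% of which were lower. Like ges-1, some peaks had exactly 2 WGATAR sites within 100 bp, at any spacing, and their median was 261, while the median over peaks with exactly 1 TGATAA was 210.2. The part of the number of sites in the higher signal of peaks with a pair was not tested. These figures describe peaks, which are not replicates, and carry no test.

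The other summits near ges-1 were weak and did not pass IDR. The pooled list held 5 of them, with signals from 20.1 to 31.5, replicate 1 held 5 from 11.1 to 18.3, and replicate 2 held 3 from 10.7 to 14.3. All were below the median of their list. The upstream summit was 10.3 times the next strongest in the pooled list, 6.94 times in replicate 1 and 13.8 times in replicate 2. No weak summit had a −log10 q above 0.563, while the upstream summit had at least 3.10 in every list.

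Inside the gene, a pooled summit at position 1431673 lay 464 bp past the transcript start in exon 2, with a signal of 20.1 and rank 23470. The replicate 2 list had a summit 1 bp away, 465 bp past the start, with a signal of 12.7, and the nearest summit of the replicate 1 list was 1606 bp from it. A further pooled summit lay 682 bp past the start in intron 2, with a signal of 20.5, and a replicate 1 summit lay in exon 8 at position 1427682, with a signal of 11.6. Neither had a summit within 100 bp in another list.

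Past the end of the gene, the strongest weak summit was at 465 bp in the pooled list, with a signal of 31.5 and rank 16315. It was matched by summits 454 bp past the end in replicate 1 (signal 15.1) and 453 bp past it in replicate 2 (signal 14.3), only 1 bp apart. It was the only weak summit found in both replicates within 100 bp. Such matches were also found for 34.0% of all replicate 1 peaks and 29.3% of all replicate 2 peaks with signals below their list's median. The remaining summits lay 89 bp past the end in the pooled list (signal 22.7), 187 bp (18.3) and 1388 bp (11.1) past it in replicate 1, and inside R12A1.3, where the signals were 24.6, 11.5 and 10.7 in the pooled, replicate 1 and replicate 2 lists. R12A1.3 codes for a protein with a Kunitz inhibitor domain, per RefSeq, and its summits in the replicates were 162 bp apart.

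GATA sites near the weak summits were few, but so were the separate places, as several of these summits recur between lists. None had a TGATAA within 100 bp, where 18.7% of windows centred 500 bp from IDR-passing summits had at least 1. A single WGATAR, the AGATAA of position 1427591, lay within 100 bp of weak summits. These were the summit 89 bp past the gene end in the pooled list and that in exon 8 in replicate 1. Of the same windows, 36.9% had at least 1 WGATAR. The upstream summit also stood alone on a larger scale. The next IDR-passing summits were 23.6 kb away past the upstream side, with a signal of 500.2 near the chitinase-like gene chil-14, and 18.02 kb away past the gene end, with a signal of 280.4 near the synaptotagmin gene snt-5. Over all IDR-passing summits the median distance to the nearest other was 1535 bp, and 95.6% had a nearer neighbour than the ges-1 summit.

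A distance of 1132 bp was longer than usual. Of the 6444 IDR-passing summits that lay upstream of their nearest coding start, the median distance was 390.5 bp and 28.1% were farther than at ges-1. Among the 960 summits at 1000 to 2000 bp, the median signal was 214 and 68.0% were weaker than at ges-1. In a promoter window that ran from 2000 bp before a transcript start to 500 bp after it, 32.1% of the coding genes had an IDR-passing summit. The ges-1 signal exceeded the strongest signal in 63.6% of these 6420 genes. The summit lay 1070 bp from the near end of the pseudogene WBGene00019976, whose own annotated start is on its far side, 2535 bp from the summit.

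Most GATA sites around ges-1 had no IDR-passing summit within 100 bp, as was so over the genome. The gene with 5 kb on each side, 14485 bp in all, held 29 WGATAR sites, or 2.00 per kb where the genome has 2.38, and 18 of them were TGATAA, or 1.24 per kb where the genome has 1.05. Over the nuclear genome 7.57% of the 105444 TGATAA sites had an IDR-passing summit within 100 bp, and near ges-1 it was 1 of 18. The other 17 comprised 7 upstream of the gene, 3 inside it and 7 past its end. None of them had a summit of any list within 100 bp, a count with no genome share to set beside it. The closest of them to a summit was 171 bp from one in R12A1.3, in replicate 2. Repeated sequence was rare around them. The median share of 31-base words found once in the genome was 100% in the 100 bp on each side, and it was above 90% at 15 of the 17.

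A few of these sites are printed beside the TGATAA of the element to show how alike they are. Each has 12 bases on both sides of the capitalised TGATAA and is on the strand where it reads so, from the same genome. Distances are those of the site's centre. The first is the TGATAA of the element (chrV:1433244-1433273, minus strand), labelled the bound site only because the peak covers it. The summits lay nearer to the TGATAG of the element, and which of the paired sites ELT-2 occupied was not tested. Next come the sites 1694 bp upstream (chrV:1433817-1433846, plus strand) and 1759 bp upstream (chrV:1433882-1433911, plus strand), which are the nearest without a summit. The last 3 lie in intron 6 (chrV:1428012-1428041, plus strand), in exon 3 (chrV:1430131-1430160, plus strand) and past the gene end (chrV:1425975-1426004, minus strand).
bound site: tgatagcaaaacTGATAAgggtcaaaattt
site 1694 bp upstream: aaaaccgaattaTGATAAttgtcagatcaa
site 1759 bp upstream: aatgatggacaaTGATAAcaaactagatta
site in intron 6: tttaatcctgacTGATAAaaatagcttgaa
site in exon 3: ctggagactcctTGATAAgctcttcaggat
site past the gene end: acatcgctgcacTGATAAtcatctcaaaat
The TGATAA of the element is preceded by AC and followed by G. Of the 18 TGATAA sites, 3 are preceded by AC, the other 2 being those in intron 6 and past the gene end, and 5 are followed by G, among them the site in exon 3. Only that of the element has both.

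These neighbouring bases were looked at after the sequence of ges-1 was seen, and were then counted over all TGATAA sites of the nuclear genome. The share of sites with an IDR-passing summit within 100 bp was 20.1% after AC (1640 of 8179 sites, 95% Clopper-Pearson interval 19.2 to 20.9%), the highest of the 16 possible pairs of preceding bases. The next was 12.6% after GC and the lowest 3.63% after CA. With AC before and G after, the share was 36.9% (681 of 1845, interval 34.7 to 39.2%). At ges-1 the TGATAA of this kind had a summit and the 2 with AC alone had none. The intervals cover counting error only, and sites close together share a summit.

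The partner site in the element was of a kind that seldom had a summit. TGATAG had one within 100 bp at 3.33% of its sites, AGATAA at 3.24% and AGATAG at 3.71%. With AC before it, as at ges-1, the share for TGATAG was 7.52% (185 of 2460). Near the ges-1 start, the AGATAA 13 bp upstream and the AGATAG sites 470 and 574 bp upstream had no summit within 100 bp in any list. The shares above are for IDR-passing summits only, and none was counted over all lists.

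Tandem pairs were counted over the same stretch. Counts of WGATAR pairs include pairs whose sites overlap, except those by spacing, which begin with starts 6 bp apart. In the 14485 bp there were 2 WGATAR pairs with starts at most 25 bp apart, or 1.38 per 10 kb where the nuclear genome has 1.80, namely the element and a pair inside R12A1.3 (chrV:1424935-1424961). The latter has a TGATAA and an AGATAA on 1 strand, 21 bp apart. Like most such pairs in the genome, it had no IDR-passing summit within 100 bp, nor one of any other list. Over the nuclear genome 12.8% of 18093 such pairs had an IDR-passing summit within 100 bp. Pairs of TGATAA had one more often, at 23.0% (1074 of 4662).

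The spacing of the ges-1 pair had a summit within 100 bp about as often as the middle of the spacings counted. Same-strand pairs with starts 12 bp apart had a summit in 12.9% of cases (78 of 607, interval 10.3 to 15.8%). Over the 20 spacings from 6 to 25 bp the share ran from 9.23% at 6 bp to 19.1% at 20 bp, with a median of 13.2%. The ges-1 spacing came at place 12 from the top. Its interval overlaps that of the 20 bp spacing (15.5 to 23.2%), so this place is not firm.

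**Figure D4:**
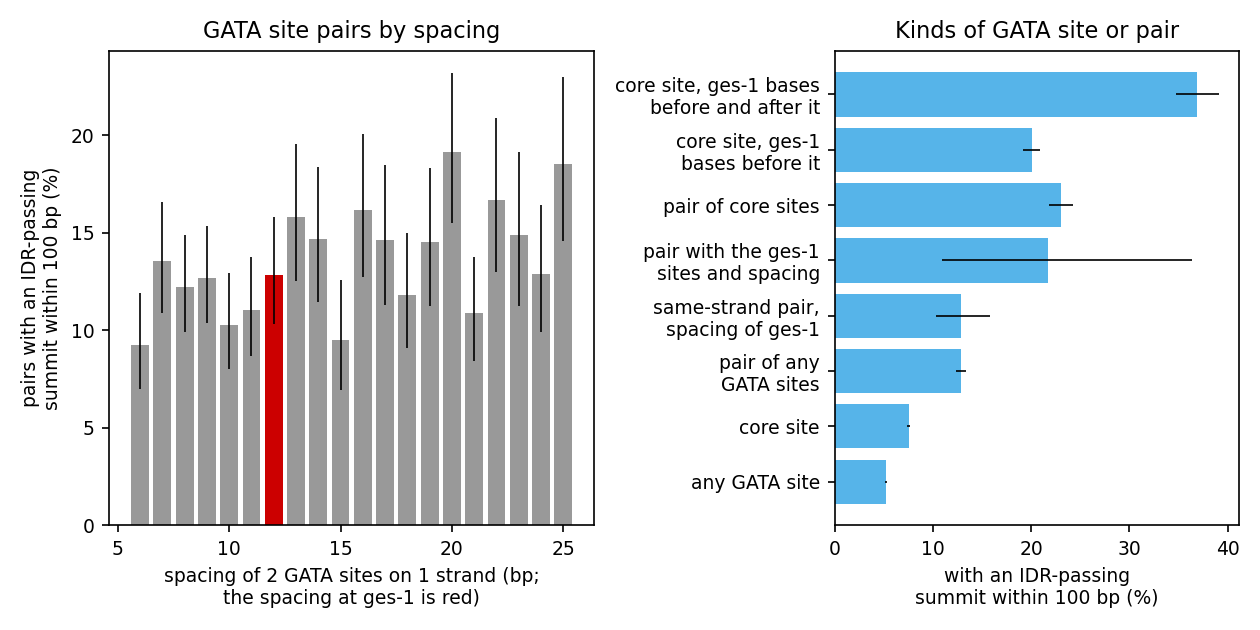
Share of GATA site pairs (left, by the spacing of their starts in bp, same strand only) and of kinds of sites or pairs (right) over the nuclear genome that have an IDR-passing summit within 100 bp, in percent, with 95% Clopper-Pearson intervals. The spacing of the ges-1 element is in red, at 12.9%; in the right panel the longest bar is the TGATAA with AC before and G after, at 36.9%, and core site means TGATAA.

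The arrangement of ges-1, a TGATAG followed on the same strand after 6 bases by a TGATAA, occurs 46 times in the nuclear genome, a pattern also chosen after the ges-1 sequence was seen. An IDR-passing summit lay within 100 bp of 10 of them (21.7%, interval 10.9 to 36.4%). The ges-1 pair, from which the pattern was taken, is among the 10. The share was 12.8% over all WGATAR pairs and 23.0% over pairs of TGATAA. The signals of the 10 peaks ran from 79.4 to 4246 with a median of 287, and 4 were stronger than at ges-1. The distance from IDR-passing summit to pair ran from 5 bp at ges-1, to the nearest whole base, through 9 bp at the next to 60 bp. In the replicates the ges-1 distance was 13.5 and 20.5 bp. The other pairs were not measured in the replicates, so its first place is known for the pooled summit only. The pairs with stronger peaks are printed beside that of ges-1 to show what they share, with both sites in capitals. They lie near C08E8.3 (chrV:18346214-18346237, minus strand), Y19D2B.2 (chrII:10924819-10924842, minus strand), maa-1, which codes for an acyl-CoA binding protein (chrIII:11822651-11822674, plus strand), and apy-1, an apyrase gene (chrX:7570082-7570105, minus strand).
C08E8.3: aacTGATAGaatcggTGATAAaat
Y19D2B.2: tatTGATAGtgttttTGATAAgag
maa-1: gaaTGATAGattaatTGATAAgac
apy-1: tttTGATAGcaaaaaTGATAAgat
ges-1: aacTGATAGcaaaacTGATAAggg
Their signals were 4246, 828, 648 and 492, in the printed order, before the 326 of ges-1. Over all 46 copies, a G followed the TGATAA at 6 of the 10 with a summit and at 7 of the 36 without one. The bases AAC before the TGATAG were found at 3 of the 10, C08E8.3, ges-1 and the weaker ain-1 peak, and at 1 of the 36. The ges-1 copy, from which these bases were read, is counted in the 10, the 6 and the 3. Whether the bases matter was therefore not tested by these counts. The peak near C08E8.3 was the second strongest nuclear peak of the list, with its summit 3865 bp upstream of the gene's start, and the summits near maa-1 and apy-1 lay 76 and 389 bp upstream of theirs.

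Some genes had an upstream summit of nearly the same strength. The candidates were the 1499 coding genes with an IDR-passing summit 500 to 2000 bp upstream for which theirs was the nearest coding start. Likeness was the Euclidean distance between log2 signals over the pooled, replicate 1 and replicate 2 lists. The most like was C39D10.11, with a summit 1237 bp upstream, signals of 325 (pooled), 128 (replicate 1) and 196 (replicate 2), and a distance of 0.01. The next were T06C12.12, rib-1, a heparan sulfate synthesis gene, fdgt-1, a glucose transporter gene, and C46C2.2, at distances of 0.03 to 0.04. Their summits lay 564, 511, 728 and 561 bp upstream. The local sequence differed among them, with 2, 0, 2, 3 and 0 TGATAA sites within 100 bp in the order named, and a WGATAR pair at T06C12.12, rib-1 and fdgt-1 only.

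The other genes of the carboxylesterase family were set beside ges-1. They were the 32 genes with the symbol cest and the 4 genes ace-1 to ace-4. The latter are named after acetylcholinesterase, the enzyme that breaks down the transmitter acetylcholine. An IDR-passing summit in the promoter window was found for 19 of the 36 family members (52.8%), where 32.1% of all coding genes had one. They comprised 18 of the 32 cest genes and 1 of the 4 acetylcholinesterase genes. The strongest signals of these 19 genes ran from 105 to 840.2 with a median of 211, and 7 exceeded that of ges-1. Over all 6420 coding genes with such a summit, 63.6% were weaker than ges-1, so the family was near that background.

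The strongest was at cest-25, 131 bp upstream, with signals of 840.2 in the IDR-passing list, 372 in replicate 1 and 468 in replicate 2, 4 TGATAA sites within 100 bp and a WGATAR pair. At cest-10 the summit lay 41 bp upstream with a signal of 626, 2 TGATAA sites and a pair. At ace-2 it lay 1845 bp upstream with a signal of 581 and 1 TGATAA, and at cest-13 it lay 5 bp past the start with a signal of 446. Of the 19 genes with a summit, 3 had their strongest summit more than 1000 bp upstream, ace-2, cest-7 (1334 bp, signal 380.4) and cest-26 (1959 bp, signal 114). The last lay nearer to the start of another gene, F15A8.1. A TGATAA lay within 100 bp of the summit at 15 of the 19, and a pair at 5. Over all IDR-passing summits, 53.9% had a TGATAA and 20.03% a pair. Of the 17 family members without an IDR-passing summit, 6 had a pooled one in the window, a count with no share of all coding genes to set beside it.

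A second list held 11 intestinal genes whose promoter GATA elements have been studied in reporters. That choice partly builds in a high share of genes with a summit. Of the 11 genes, 9 had an IDR-passing summit in the window (81.8%, where all coding genes had 32.1%). Their signals ran from 149.6 to 1569 with a median of 421, and 6 were stronger than ges-1. The strongest were cpr-1 and asp-1, which code for a cysteine and an aspartic protease of the gut, at 1569 (129 bp upstream) and 1260.4 (875 bp upstream). They were followed by the intestinal acid phosphatase gene pho-1 (555, 91 bp upstream) and the sphingosine-1-phosphate lyase gene spl-1 (445, 331 bp upstream), both with a pair.

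All 9 had a TGATAA within 100 bp of the summit and 4 had a pair, where 53.9% of all IDR-passing summits had a TGATAA and 20.03% a pair. The genes were listed for their promoter GATA elements, so sites near their summits are partly built into the list. The strongest summit in the window was at none of the 9 as far upstream as that of ges-1. The 2 without an IDR-passing summit, vit-2 and vit-6, code for yolk proteins that the adult intestine makes. Whether the larval stage has a part in this was not tested. In the pooled list vit-6 had a summit in the window (signal 20.2, rank 23364) and vit-2 had none. Both lists were drawn up by hand and are described by their counts only.

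**Figure D5:**
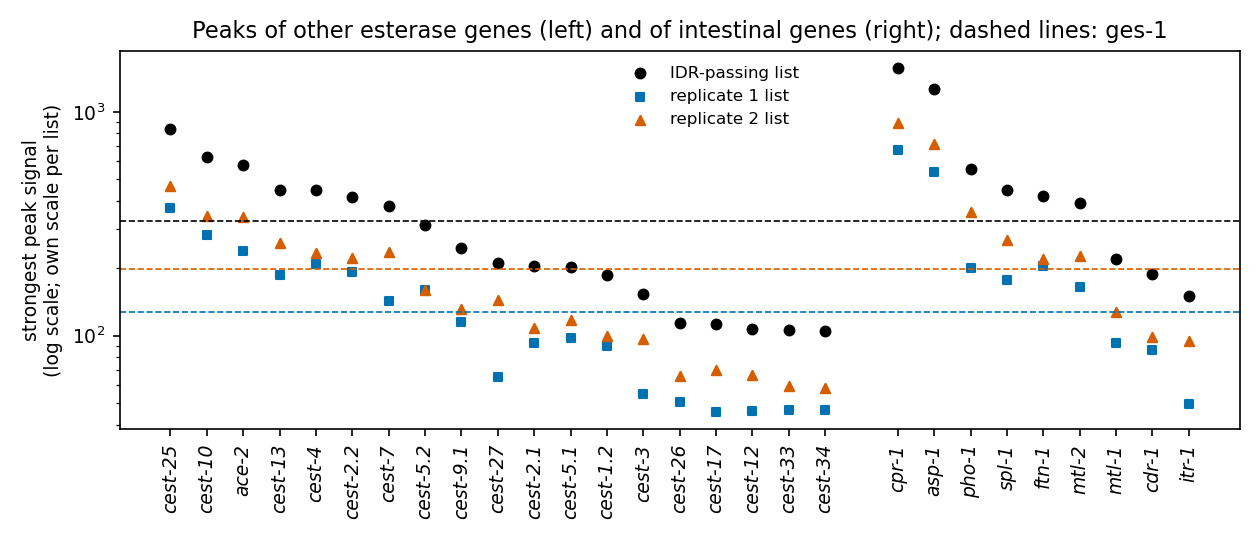
Signal of the strongest IDR-passing peak in the promoter window (black) and of the matching replicate 1 (blue) and replicate 2 (orange) peaks, on a log axis, for the 19 carboxylesterase genes (left) and the 9 intestinal genes (right) that have one. Dashed lines in the same colours are the ges-1 values of 326, 127 and 198; 7 genes on the left and 6 on the right have black dots above the black line.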

How the data were processed

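The ChIP-seq peak lists on ce11 were read for biological replicates 1 and 2, for both pooled, and for the IDR-passing peaks. The deposited signal of each peak and the deposited −log10 q are the authors' values against a control, and signal was used only to rank and describe peaks within a list. What called the peaks, aligned the reads and set the IDR limit is not given in the sources used here. None of the lists holds read counts, so depth is unknown and how it limits the weak summits could not be assessed.

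The summit was the peak start plus the deposited offset. Mitochondrial peaks were left out, which left 9181, 29981, 28026 and 29977 nuclear peaks in the IDR-passing, pooled, replicate 1 and replicate 2 lists. The IDR-passing peaks are the strongest of the pooled list, so these are not independent. The ce10 lists were not used. Annotation came from Ensembl release 115 and sequence from the RefSeq WBcel235 genome. TGATAA and WGATAR were searched on both strands, and sites around a summit were counted when they lay wholly within 100 bp, while genome-wide shares counted sites and pairs whose centre lay within 100 bp of a summit. Replicate summits were matched within 100 bp. Shares over the genome have 95% exact intervals.

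The gene, the lists and the measures were chosen with earlier results of these data known. Named genes were ges-1, its neighbours within 5 kb, the 4 genes with the strongest upstream peak in each of the 2 lists, and the 5 genes most like it. Others named were chosen after their values were seen. Nothing says whether the replicates came from separate cultures beyond the label of biological replicates. No test was made, as there was 1 group. The alternatives changed the reach, the peak list, the summit definition, the site searched and the replicates used. The site search and matching were tested on simulated data. Tools were matplotlib 3.10.9, scipy 1.17.1, pandas 2.3.3 and numpy 2.4.6 under Python 3.11.15.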

Additional observations from a re-analysis of the deposited data

How the results depend on the processing

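The single summit within 5 kb of ges-1 was also the only one at a reach of 2 or 10 kb, by distance to the start alone, in the stronger part of the list and in the strongest peaks of either replicate; the whole pooled list gave 6. The distance of 1132 bp became 1138 bp from the peak's midpoint and 1141 to 1148 bp when 1 replicate was left out. The share of weaker peaks, 69.2%, became 61.1% over the strongest peak of each gene and 66.3 to 70.5% without 1 replicate. The last 2 values are among the strongest peaks of the replicate kept. Over the whole lists the share was 89.0% in replicate 1 and 91.0% in replicate 2. The 1 TGATAA near the summit was 1 at 50 and 200 bp and in either replicate, while WGATAR gave 2 and AGATAA 0. The distance to the element's centre, 4.5 bp, became 10.5 bp from the midpoint and 13.5 to 20.5 bp without 1 replicate. The 2 site pairs became 1 at a limit of 15 bp and 3 at 50 bp. The share of coding genes with a summit in reach was 42.8% at 2 kb and 75.6% at 10 kb. The 19 esterase genes with a summit became 17 with 1000 bp upstream, 23 with 5000 bp and 25 with the pooled list. The share of all coding genes is not given for these settings, so the counts cannot be read against it. No paired analysis was possible because there is 1 group and no result comes from a test. Depth is unknown, so what it limits could not be assessed.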
